A study of Mus musculus with 36 samples.

Results

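Apolipoprotein E (Apoe) and 9 other genes of lipid transport were followed in mouse embryonic fibroblasts that were or were not transduced with heart transcription factors and were kept with or without 1% dimethyl sulfoxide (DMSO), a polar solvent. The genes are Apoe, Apod, Pltp, Lpl, Abca1, Abcg1, Scarb1, Lrp1, Vldlr and Lrp11, 10 of the 50509 gene symbols measured in each library. They were taken by symbol, and each had 1 entry in the table of each arm. The set was selected on measured values, with earlier results of these data known. Apoe was already known to be lower with DMSO in uninfected cells at day 21, and Lrp11 to be higher with DMSO in uninfected cells at day 2. The DMSO comparisons of uninfected cells at days 2 and 21, and the differences between arms at those days, are therefore given below as descriptions with no p-value.

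The fibroblasts came from E12.5-13.5 embryos of a strain whose mCherry reporter is driven by the Myh6 promoter, Myh6 being a myosin heavy chain gene of heart muscle. The 36 libraries form 12 groups of 3: GHMT cells, which received Gata4, Hand2, Mef2c and Tbx5, with 1% DMSO, GHMT cells left untreated, uninfected cells with 1% DMSO and uninfected cells left untreated, each at days 2, 7 and 21. All groups, controls included, were grown in StemPro34 medium with FGF2, FGF10 and VEGF. The labels name no sorting for the reporter, so each library is read here as a whole culture, which in the GHMT arm may hold cells with and without the factors. Whether the 3 replicates of each group grew as cultures of their own is not stated, and p-values therefore rest on a spread among libraries that may be technical.

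Lipids move between cells and fluid on lipoproteins, particles whose apolipoproteins are bound by receptors on the cell surface. Apoe is made by macrophages, astrocytes and liver and is a ligand of Lrp1 and Vldlr, which take particles up by endocytosis. Abca1 and Abcg1 pass cholesterol from the cell to lipid-poor apolipoproteins and to formed particles, and both genes, like Apoe in macrophages, are known targets of the liver X receptors. Lpl frees fatty acids from particle triglycerides, Pltp moves phospholipids between particles, and Scarb1 takes up cholesterol esters from high-density lipoprotein. Apod is a lipocalin that binds small lipids and is no close relative of Apoe. Lrp11 carries the family name of the low-density lipoprotein receptor.

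Values are TPM, kallisto's transcript abundances scaled to the transcript length and to a fixed sum per library, and they keep no record of sequencing depth. Between 15776 and 18486 genes stood at 1 TPM or more in a library, and protein-coding genes held 50.6 to 65.3% of TPM. All 10 fibroblast markers were detected in both arms. Cardiomyocyte markers summed to 451 to 7360 TPM in GHMT libraries and to 5.53 to 10.4 TPM in uninfected ones. Hepatocyte markers, a check for liver carry-over, summed to at most 3.20 TPM in a GHMT library and 3.96 TPM in an uninfected one. Replicate 3 of GHMT cells with DMSO at day 21, replicate 1 of GHMT cells with DMSO at day 7 and replicate 1 of untreated uninfected cells at day 21 stood apart in earlier results, and values without them are given where a call or a size turns on them. All differences below are of log2(TPM + 1), tested with limma and adjusted over all genes of the table by Benjamini and Hochberg, and a call means an adjusted p below 0.05. Levels of the 2 arms come from separate tables and were not tested against each other.

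The promoters of 3 members are shown because Apoe and Lrp11 lay at the opposite ends of the DMSO differences in uninfected cells at days 7 and 21, and because Abca1 is the textbook target of the liver X receptors. Of the 10 members 7 had a promoter in the RefSeq table used here (build GRCm38.p6), with 10 start sites in all, and the 250 bases before the start are printed 5′ to 3′ on the gene's strand. Capitals mark matches, on either strand, to any of 5 motifs: the DR4 repeat bound by liver X receptors, the TATA box (TATAAA), the GC box (GGGCGG), the CCAAT box (CCAAT) and a sterol element (TCACNCCAC). The first lies at chr7:19699189-19699438 on the minus strand, the second at chr4:53159896-53160145 on the minus strand and the third at chr10:7589567-7589816 on the plus strand.
Apoe: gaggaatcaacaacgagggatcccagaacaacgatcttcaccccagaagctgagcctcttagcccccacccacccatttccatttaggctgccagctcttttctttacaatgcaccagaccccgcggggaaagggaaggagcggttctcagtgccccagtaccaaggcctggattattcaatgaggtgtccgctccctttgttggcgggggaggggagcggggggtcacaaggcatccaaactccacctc
Abca1: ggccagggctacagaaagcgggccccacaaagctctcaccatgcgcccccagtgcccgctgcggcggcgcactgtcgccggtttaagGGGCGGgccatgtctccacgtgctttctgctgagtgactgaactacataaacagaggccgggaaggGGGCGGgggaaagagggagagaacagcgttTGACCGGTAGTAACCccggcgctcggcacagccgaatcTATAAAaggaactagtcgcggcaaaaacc
Lrp11: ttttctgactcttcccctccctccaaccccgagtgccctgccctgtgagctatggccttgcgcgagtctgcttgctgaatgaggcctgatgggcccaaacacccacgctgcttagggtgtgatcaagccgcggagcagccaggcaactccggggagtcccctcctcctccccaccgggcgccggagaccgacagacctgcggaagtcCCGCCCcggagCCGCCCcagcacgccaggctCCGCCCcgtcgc
In Abca1 a DR4 match on the other strand spanned positions -67 to -53 before the start, a TATA box began at -29 and GC boxes began at -163 and -97. A DR4 match was present in 0.177% of all 32851 promoter windows. The Lrp11 window held GC boxes at -43, -32 and -12, all on the other strand, a motif that 32.7% of all windows hold. None of the 5 motifs was found in the Apoe window shown, the one furthest upstream of its 3 start sites, nor in another of the 3. The Apoe window at chr7:19698622-19698871, on the minus strand, held a pair of overlapping TATA box matches that begin at -100 on the other strand and at -96 on the gene's strand, a motif found in 12.4% of all windows. A match describes letters and shows no binding.

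Across the 10 genes, DMSO moved few members past the test, and the calls are set here beside the share of all genes called. In GHMT cells no member was called at day 2, where 0.00485% of 20618 genes were, and 706 genes had an unadjusted p under 0.05. No member was called at day 7 (0.708% of genes), where 3218 genes had an unadjusted p under 0.05. At day 21 Lrp11 rose and none fell (4.59% of genes). In uninfected cells at day 7 Lrp11 rose and Apoe and Scarb1 fell, 3 of the 9 members other than Abcg1, beside 1.69% of 19979 genes, and 694 genes against 337 when TPM was rescaled to protein-coding genes. Abcg1 is left out of the counts and medians of these DMSO comparisons of uninfected cells for the reason given with its values. It is included where the settings are changed. At days 2 and 21, the comparisons behind the choice of members, 1 member (0.285% of genes called) and 2 members (2.36% of genes called) passed the threshold, and nothing is read from these counts. The median difference over the 9 members in uninfected cells was -0.06 at day 2, -0.23 at day 7 and -0.15 at day 21, beside medians of 0.05, 0.00 and 0.01 over all genes tested. In GHMT cells the medians over the 10 members were -0.04, 0.12 and 0.02 at days 2, 7 and 21, beside 0.04, 0.07 and -0.06 over all genes.

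**Figure D1:**
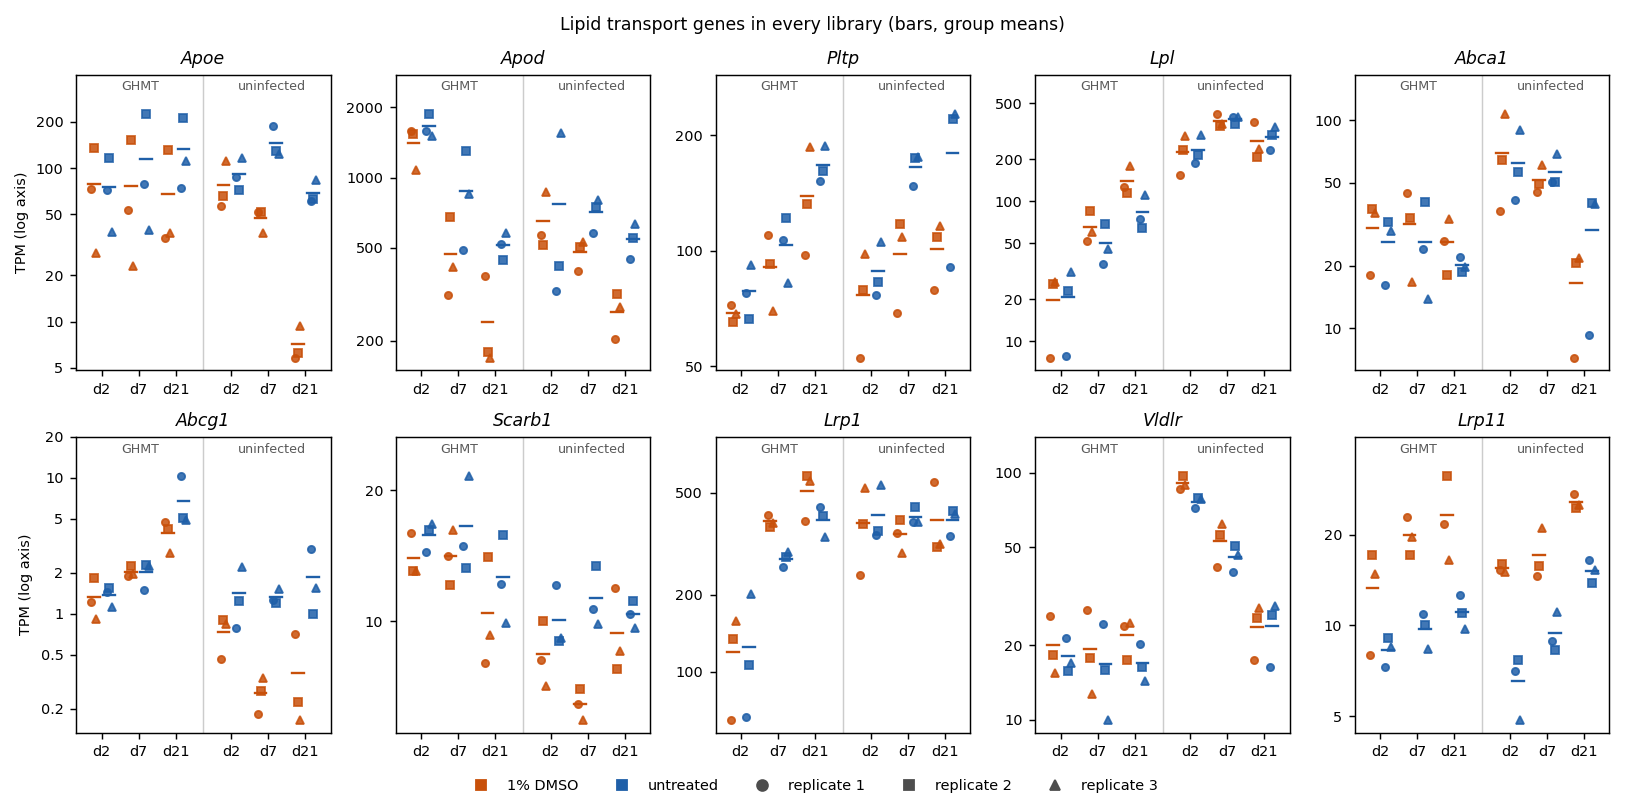
Level of each gene in every library, in TPM on a log axis, with DMSO (orange) left of untreated (blue) at days 2, 7 and 21. Point shapes give the replicate number and short bars the group means (n = 3); in uninfected cells at day 21 the Apoe points with DMSO lie between 5.77 and 9.41 TPM, below all other Apoe points of both arms.

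Apoe (ENSMUSG00000002985.16) in uninfected cells had the largest DMSO difference of the 10 members at days 7 and 21, and it was lower with DMSO. At day 2 it stood at 56.4, 65.8 and 112 TPM with DMSO, against 88.0, 72.2 and 116 TPM untreated. The libraries of the groups overlapped, and the difference was -0.27 ± 0.27 (log2, SE). At day 7 it stood at 51.7, 52.1 and 37.5 TPM with DMSO, against 189, 129 and 123 TPM untreated. Every DMSO library lay below every untreated one, and Apoe fell by 1.61 ± 0.27 on the log2 scale (adjusted p = 0.0097, limma). The call was lost without untreated replicate 1, where the difference was -1.42 (adjusted p = 0.0503). By day 21 Apoe stood at 5.77, 6.26 and 9.41 TPM with DMSO, against 61.2, 62.9 and 83.3 TPM untreated. The groups did not overlap, and the difference was -3.12 ± 0.27, a level with DMSO at 0.115 times that of untreated cells on the log2(TPM + 1) scale. Without the untreated library that stood apart it was -3.20.

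In GHMT cells Apoe spread widely between the replicates of a group. At day 2 the 3 libraries with DMSO stood at 73.1, 136 and 28.0 TPM and the untreated ones at 72.5, 116 and 38.2 TPM. At day 7 they stood at 53.6, 153 and 23.0 TPM with DMSO, against 78.9, 227 and 39.5 TPM untreated. At day 21 the values were 35.0, 130.5 and 37.9 TPM with DMSO, against 74.1, 214 and 111 TPM untreated. The groups overlapped at every day, and replicate 2 was the highest library of its group in all 6. The differences were -0.06, -0.62 and -1.10 at days 2, 7 and 21, each ± 0.80 (SE), with adjusted p of 1, 0.769 and 0.428. The 95% intervals ran from -1.79 to 1.66 at day 2, from -2.34 to 1.10 at day 7 and from -2.82 to 0.62 at day 21. These intervals come from a fit without the replicate number, so they include the spread between replicates. They hold 0 as well as falls of the size seen in uninfected cells at day 7, and nothing is read from that. At day 7, where replicate numbers were taken to pair the libraries, Apoe was lower with DMSO in all 3 pairs, by 0.55 to 0.76. At day 21, where numbers were not taken to pair libraries, same-numbered libraries differed by -1.06, -0.71 and -1.53. Apoe was called at day 21 with the replicate number as a block within the day.

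Ordered by mean level, Apoe in uninfected cells ran from 146.9 ± 36.3 TPM (SD, n = 3) in untreated cells of day 7 through 92.0 ± 22.1 (untreated, day 2), 78.0 ± 29.7 (DMSO, day 2), 69.1 ± 12.3 (untreated, day 21) and 47.1 ± 8.29 (DMSO, day 7) to 7.15 ± 1.98 TPM (DMSO, day 21). The neighbours at 92.0 and 78.0 TPM, and those at 78.0 and 69.1 TPM, had overlapping libraries, while the libraries of all other neighbours in this order did not overlap. In GHMT cells the means ran from 133 ± 72.4 TPM in untreated cells of day 21 to 67.8 ± 54.3 TPM with DMSO at day 21, and the libraries of all neighbours in that order overlapped.

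**Figure D2:**
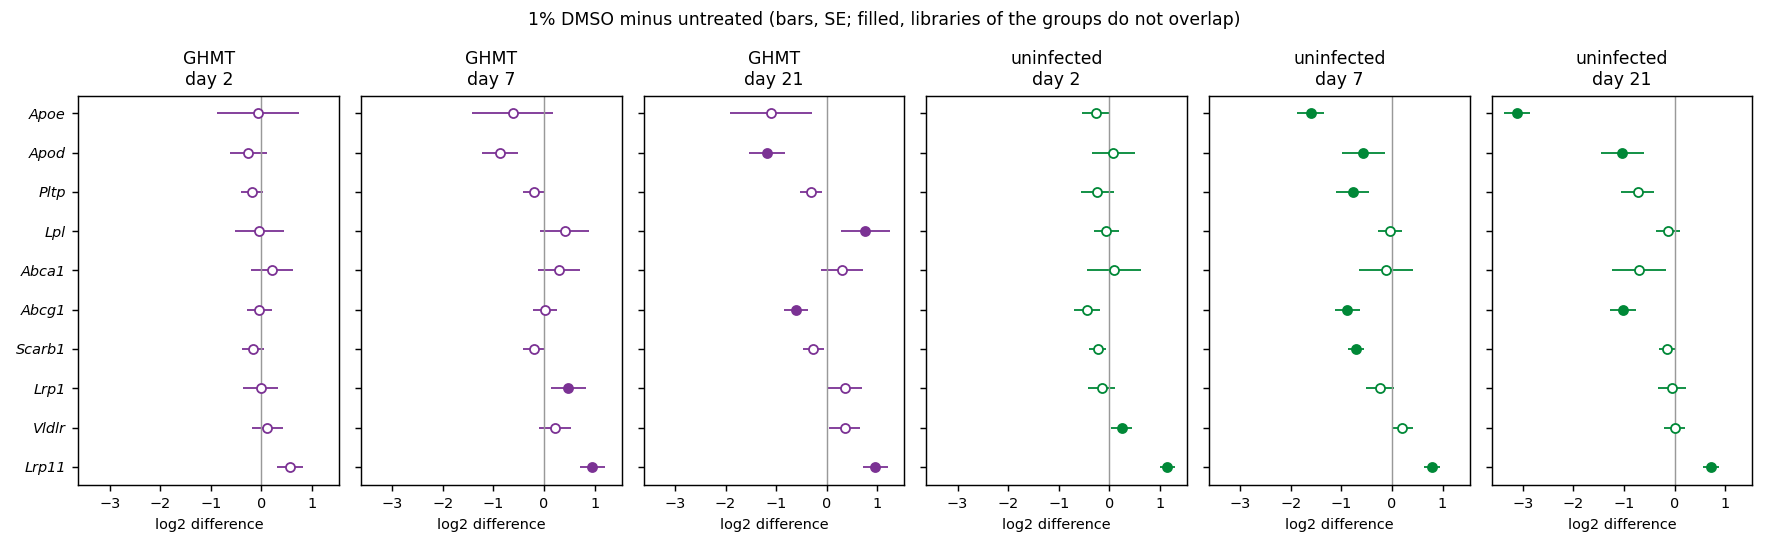
Difference in log2(TPM + 1) between 1% DMSO and untreated cells for each gene, by arm and day, with bars of 1 SE. Filled points mark genes whose 3 DMSO and 3 untreated libraries do not overlap: Lrp11 is filled in 5 of the 6 panels, and Apoe in uninfected cells at days 7 and 21, at -1.61 and -3.12.

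Apod, the other carrier, also had lower means with DMSO at the later days in both arms. It was not called when all libraries were used without the replicate number as a block. In GHMT cells at day 21 it stood at 377, 179 and 168 TPM with DMSO, against 519, 443 and 577 TPM untreated. The groups did not overlap, and the difference was -1.18 ± 0.36 (log2, SE; adjusted p = 0.0756, limma). It passed the test without DMSO replicate 1, the highest of its group (-1.55, adjusted p = 0.0135). It was also called with the replicate number as a block within the day, although numbers were not taken to pair libraries there. At day 7 it stood at 313, 679 and 415 TPM with DMSO, against 489, 1299 and 850.4 TPM untreated, groups that overlap, with a difference of -0.87 (adjusted p = 0.266). In uninfected cells at day 7 Apod stood at 399, 505 and 528 TPM with DMSO, against 581, 749 and 798 TPM untreated. These groups did not overlap, but the difference of -0.57 ± 0.42 carried an adjusted p of 0.566. At day 21 the uninfected values were 202, 318 and 279 TPM with DMSO and 446, 553 and 632 TPM untreated, a difference of -1.04 with no overlap. At day 2 the 6 uninfected libraries spread from 328 to 1556 TPM, both in untreated cells.

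Of the proteins of particle remodelling, neither Pltp nor Lpl passed the test with DMSO in either arm without the replicate number as a block. Pltp in uninfected cells at day 7 stood at 68.9, 117 and 109 TPM with DMSO, against 147, 174 and 176 TPM untreated. The groups did not overlap, with a difference of -0.78 ± 0.32 (adjusted p = 0.25). At day 21 it stood at 79.1, 108 and 116 TPM with DMSO, against 90.7, 221 and 228 TPM untreated. These groups overlap through untreated replicate 1, the library that stood apart, and the difference was -0.73 with it and -1.16 without it. The latter value keeps DMSO replicate 1, the lowest of its group at 79.1 TPM. Same-numbered libraries differed there by -0.20, -1.02 and -0.97, though numbers were not taken to pair them. In GHMT cells Pltp differed by -0.18, -0.20 and -0.31 at days 2, 7 and 21, each with overlapping groups and adjusted p of 0.412 or more.

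Lpl in GHMT cells had higher means with DMSO at the later days. At day 7 it stood at 52.1, 85.2 and 59.8 TPM with DMSO, against 35.5, 69.2 and 45.7 TPM untreated. The groups overlapped and the difference of 0.41 ± 0.48 was not called (adjusted p = 0.743), but with the replicate number as a block within the day the same difference carried an SE of 0.09 and an adjusted p of 0.0431. At day 21 it stood at 126, 115 and 179.7 TPM with DMSO, against 74.1, 64.4 and 111 TPM untreated. Here every DMSO library lay above every untreated one, with a difference of 0.76 ± 0.48 (adjusted p = 0.355). This difference too was called with the replicate number as a block within the day, although numbers were not taken to pair libraries there. In uninfected cells Lpl differed by -0.06, -0.04 and -0.13 at days 2, 7 and 21, with the groups overlapping at each day, and the 95% interval at day 7 ran from -0.57 to 0.49.

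The cholesterol exporters had unlike levels. Abca1 stood between 13.9 and 44.9 TPM in GHMT cells and between 7.19 and 108 TPM in uninfected cells, and in every DMSO comparison its groups overlapped. Its differences were 0.21, 0.29 and 0.31 in GHMT cells and 0.09, -0.12 and -0.70 in uninfected cells at days 2, 7 and 21, with adjusted p of 0.681 or more wherever a p is given. Without the untreated library that stood apart, which held 9.28 TPM against 39.8 TPM in each of the other 2, the difference in uninfected cells at day 21 was -1.36. That value keeps DMSO replicate 1 of the day, the lowest library of the arm at 7.19 TPM. Same-numbered libraries differed there by -0.33, -0.92 and -0.85, though numbers were not taken to pair them.

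Abcg1 was the member of lowest level, at 0.165 to 3.0 TPM in uninfected cells and 0.920 to 10.3 TPM in GHMT cells. In uninfected cells it passed the filter on low values through untreated libraries alone, so a difference in that direction was favoured by the filter. At day 7 it stood at 0.182, 0.269 and 0.335 TPM with DMSO, against 1.26, 1.20 and 1.52 TPM untreated, and at day 21 at 0.710, 0.226 and 0.165 TPM, against 3.0, 0.997 and 1.55 TPM untreated. No DMSO library reached an untreated one at either day. The differences were -0.88 ± 0.25 at day 7 and -1.02 ± 0.25 at day 21, given as descriptions with no p-value. In GHMT cells at day 21 it stood at 4.73, 4.23 and 2.81 TPM with DMSO, against 10.3, 5.08 and 4.87 TPM untreated. These groups did not overlap either, with a difference of -0.61 ± 0.25 (adjusted p = 0.151). With the replicate number as a block within the day this difference was called, although numbers were not taken to pair libraries there.

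Among the receptors, Scarb1 (ENSMUSG00000037936.15) fell with DMSO in uninfected cells at day 7. It stood at 6.48, 7.01 and 5.93 TPM with DMSO, against 10.7, 13.4 and 9.86 TPM untreated. The groups did not overlap, and the difference was -0.71 ± 0.17 (adjusted p = 0.045, limma). The call was lost without any 1 of the 6 libraries (adjusted p = 0.0769 to 0.175). At days 2 and 21 the differences were -0.23 and -0.15 with overlapping groups, and in GHMT cells they were -0.16, -0.19 and -0.26 (adjusted p of 0.478 or more).

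Lrp1, the large endocytic receptor of Apoe, was one of the most abundant members. In GHMT cells at day 7 it stood at 409, 368 and 382 TPM with DMSO, against 256, 279.9 and 295 TPM untreated. The groups did not overlap, yet the difference of 0.48 ± 0.35 was not called (adjusted p = 0.55). At day 21 the groups overlapped, at 389, 582 and 555 TPM with DMSO and 438, 405 and 335 TPM untreated. In uninfected cells its differences were -0.15, -0.23 and -0.05 at days 2, 7 and 21, all with overlap.

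Vldlr, the receptor of very low-density lipoprotein, did not pass the test with DMSO at any day. In uninfected cells at day 2 it stood at 85.9, 97.4 and 89.3 TPM with DMSO, against 71.8, 78.9 and 78.6 TPM untreated, groups that did not overlap and differed by 0.25. At day 7 the uninfected difference was 0.20 ± 0.21 (95% interval -0.24 to 0.65) and at day 21 it was 0.01 (95% interval -0.44 to 0.45). In GHMT cells it was 0.11, 0.22 and 0.36, with adjusted p of 0.504 or more.

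Lrp11 (ENSMUSG00000019796.12) had a higher mean with DMSO in both arms at every day. In GHMT cells at day 2 it stood at 8.0, 17.1 and 14.8 TPM with DMSO, against 7.29, 9.08 and 8.48 TPM untreated, groups that overlap through DMSO replicate 1, with a difference of 0.57 ± 0.25 (adjusted p = 1). At day 7 it stood at 22.9, 17.1 and 19.6 TPM with DMSO, against 10.9, 10.1 and 8.36 TPM untreated. No library overlapped, and the difference was 0.96 ± 0.25 (adjusted p = 0.0988). With the replicate number as a block within the day it was called (adjusted p = 0.0315), and it was 0.85 without the DMSO library that stood apart (adjusted p = 0.204). At day 21 it stood at 21.7, 31.3 and 16.5 TPM with DMSO, against 12.6, 11.0 and 9.73 TPM untreated. The groups did not overlap, and Lrp11 rose by 0.96 ± 0.25 (adjusted p = 0.0433), or by 1.17 without the DMSO library that stood apart (adjusted p = 0.0459). The call was lost without untreated replicate 1, 2 or 3 or DMSO replicate 2 (adjusted p = 0.0748 to 0.134).

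In uninfected cells Lrp11 at day 2 stood at 15.3, 16 and 15.1 TPM with DMSO, against 7.06, 7.67 and 4.84 TPM untreated, a difference of 1.15 ± 0.16 with no overlap. At day 7 it stood at 14.6, 15.7 and 21.1 TPM with DMSO, against 8.90, 8.27 and 11.1 TPM untreated. Every DMSO library again lay above, and it rose by 0.79 ± 0.16 (adjusted p = 0.0209). This call was lost without untreated replicate 1, untreated replicate 2 or DMSO replicate 3 (adjusted p = 0.0832, 0.0938 and 0.086). At day 21 it stood at 27.2, 24.6 and 25 TPM with DMSO, against 16.5, 13.8 and 15.3 TPM untreated, a difference of 0.72 with no overlap.

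Counted over the DMSO comparisons, the members whose groups did not overlap were 0 at day 2, 2 at day 7 and 4 at day 21 in GHMT cells, beside 9.69%, 21.9% and 24% of all genes. In uninfected cells, of the 9 members other than Abcg1, they were 2 at day 2, 5 at day 7 and 3 at day 21, beside 16.4%, 28.7% and 14.6% of all genes. The count of day 2 holds Lrp11 and that of day 21 holds Apoe and Lrp11, with those comparisons behind the choice of members. Nothing is read from these counts. Besides them, only Vldlr at day 2 and Apod at day 21 did not overlap. The 5 of day 7 were Lrp11 above its untreated libraries, and Apoe, Apod, Pltp and Scarb1 below them.

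Whether the DMSO effect differed between the arms was tested as GHMT minus uninfected, in 1 fit over the 36 libraries and 18796 genes. At day 7 no member was called, beside 0.0213% of genes, and 1405 genes had an unadjusted p under 0.05. The difference between arms at day 7 was 0.99 for Apoe (95% interval -0.83 to 2.80, adjusted p = 0.782) and, as a description, 0.90 for Abcg1. For Lrp11 it was 0.16, with an interval from -0.45 to 0.77. At days 2 and 21, where the members' choice used the uninfected arm, 0% and 0.277% of genes were called and 195 and 2444 had an unadjusted p under 0.05, and nothing is read from the members' count. As a description, at those days Apoe differed by 0.21 and 2.02 and Lrp11 by -0.58 and 0.24. The fit over the 36 libraries had no replicate block, so its interval for Apoe includes the spread between replicates. In it, an Apoe fall called in uninfected cells at day 7 and not in GHMT cells is not shown to differ between them. Same-numbered libraries at day 7 differed in Apoe by -0.55, -0.56 and -0.76 in GHMT cells. In uninfected cells, where numbers were not taken to pair libraries, they differed by -1.85, -1.29 and -1.69. These values were not tested against each other.

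Over culture time Lpl, Lrp1, Abcg1 and Pltp rose and Apod fell in GHMT cells under both treatments. At day 21 against day 2, 5 members rose and 1 fell with DMSO, beside 37.6% of all genes called, and 4 rose and 1 fell in untreated cells, beside 24.6%. The 2 comparisons use different libraries. Lpl in GHMT cells with DMSO stood at 7.58, 25.6 and 26.4 TPM at day 2, 52.1, 85.2 and 59.8 TPM at day 7 and 126, 115 and 179.7 TPM at day 21. Every library of day 21 lay above every library of day 2, and Lpl rose by 2.91 ± 0.48 (adjusted p = 0.000507, limma). In untreated GHMT cells it rose by 2.11 (adjusted p = 0.00663), with 74.1, 64.4 and 111 TPM at day 21 against 7.90, 22.9 and 31.3 TPM at day 2. The median of all genes shifted too, by 0.09 with DMSO and 0.20 untreated, beside medians of 0.46 and 0.59 over the 10 members, and in uninfected cells by -0.10 and -0.06. Cardiomyocyte markers moved with these results: 8 of 9 rose with DMSO (median 5.33) and all 9 rose untreated (median 3.63). Of 9 epicardial and mesothelial markers tested, 5 rose and 2 fell with DMSO (median 0.99), and 3 rose and 1 fell untreated (median 0.68). This was not particular to GHMT cells. Of the 9 tested in uninfected cells, 4 rose and none fell with DMSO (median 0.80), and none was called untreated (median 0.44). The part of either list in the results over time was not tested.

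Lrp1 rose beside it, by 2.16 in GHMT cells with DMSO and by 1.79 in untreated ones (adjusted p = 0.000396 and 0.00232). Untreated it stood at 66.6, 106 and 202 TPM at day 2, 256, 279.9 and 295 TPM at day 7 and 438, 405 and 335 TPM at day 21, with no overlap between successive days. Abcg1 rose by 1.08 with DMSO and by 1.64 untreated (adjusted p = 0.00395 and 0.000391), and Pltp rose by 0.96 with DMSO and by 1.09 untreated (adjusted p = 0.00424 and 0.00307). Apod ran the other way: it stood at 377, 179 and 168 TPM at day 21 against 1584, 1531 and 1083 TPM at day 2 with DMSO, and at 519, 443 and 577 TPM at day 21 against 1589.7, 1879 and 1505 TPM at day 2 untreated. Apod fell by 2.61 with DMSO and fell by 1.69 untreated (adjusted p = 0.000142 and 0.00452), with no overlap in either. Lrp11 rose by 0.77 with DMSO (adjusted p = 0.0246) and differed by 0.38 untreated (adjusted p = 0.279). The DMSO call of Lrp11 was lost without day 2 replicate 1 (0.47) or day 21 replicate 2 (0.54). Apoe differed by -0.23 with DMSO and 0.81 untreated, Abca1 by -0.20 and -0.29, Scarb1 by -0.42 and -0.32 and Vldlr by 0.15 and -0.09, none called.

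**Figure D3:**
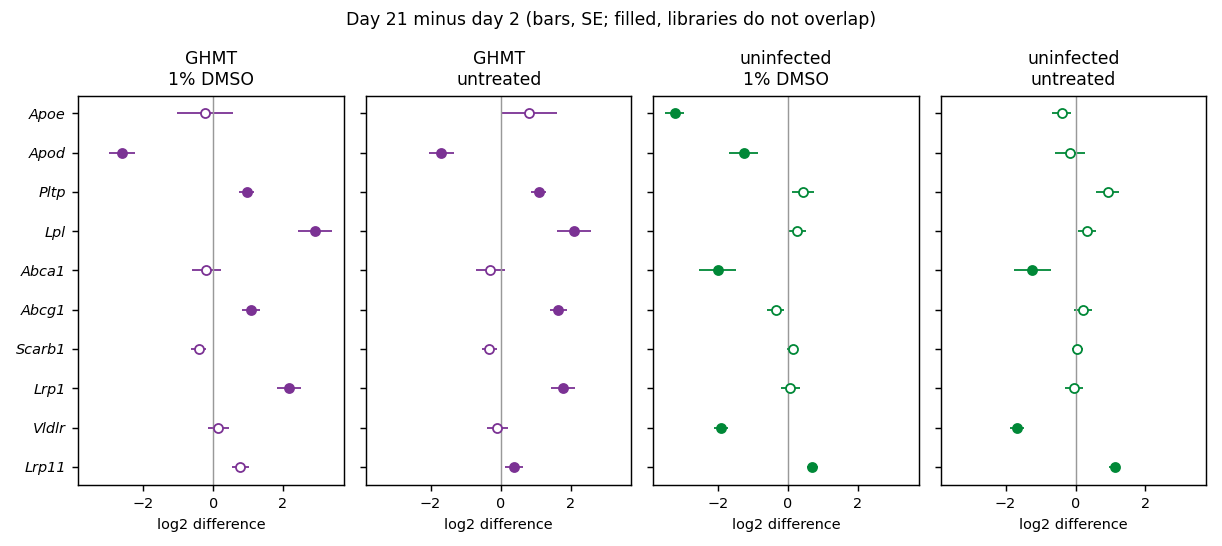
Difference in log2(TPM + 1) between day 21 and day 2 for each gene, by arm and treatment, with bars of 1 SE; filled points mark genes whose libraries do not overlap. Lpl and Lrp1 lie at 1.79 or more in both GHMT panels and between -0.04 and 0.33 in the uninfected ones, and Vldlr lies at -1.91 and -1.67 in the uninfected panels.

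In uninfected cells Vldlr fell over time under both treatments. Of the 8 members other than Apoe and Lrp11, 2 fell with DMSO (Vldlr and Abca1), beside 15.1% of genes called, and 1 fell untreated (Vldlr), beside 11%. None of the 8 rose. Vldlr in untreated uninfected cells stood at 71.8, 78.9 and 78.6 TPM at day 2, 39.6, 50.7 and 46.6 TPM at day 7 and 16.4, 26.6 and 28.8 TPM at day 21. Each day lay wholly below the one before, and Vldlr fell by 1.67 ± 0.21 at day 21 against day 2 (adjusted p = 0.000172). With DMSO it fell by 1.91 (adjusted p = 4.56e-05), at 17.4, 25.8 and 28.4 TPM at day 21 against 85.9, 97.4 and 89.3 TPM at day 2.

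Abca1 fell with DMSO by 2.02 ± 0.53 (adjusted p = 0.0203), at 7.19, 20.6 and 21.7 TPM at day 21 against 36.5, 64.2 and 108 TPM at day 2. This call was lost without day 2 replicate 2, day 2 replicate 3 or day 21 replicate 1 (adjusted p = 0.0596, 0.0893 and 0.0747). Untreated, Abca1 differed by -1.23 (adjusted p = 0.16), or -0.57 without the library that stood apart, which was the lowest of its group. Pltp in untreated cells differed by 0.92 (adjusted p = 0.0855) and by 1.35 without that library (adjusted p = 0.00546). Apod with DMSO differed by -1.27 (adjusted p = 0.0583). Apoe differed by -3.24 with DMSO and -0.40 untreated, and Lrp11 by 0.69 and 1.12. For Apoe and Lrp11 these comparisons share libraries with those behind the choice of members, so no p is given. Lpl, Lrp1, Scarb1 and Abcg1 lay between -0.36 and 0.33 in both.

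Apoe was followed across the 18 libraries of each arm to find the genes whose pattern was most like it, by Pearson's r of log2(TPM + 1) among genes whose mean reached 5 TPM in some group. The points of an arm share days, treatments and replicate numbers, so r describes these libraries and carries no p. In GHMT cells the 5 closest of 11445 genes were Csf1r (0.896), Adgre1 (0.894), Lcp1 (0.890), Laptm5 (0.880) and Ms4a6d (0.872). Of these, Csf1r, Adgre1 and Laptm5 are in the macrophage list used below. Csf1r is the receptor of macrophage colony-stimulating factor, Adgre1 encodes the macrophage surface antigen F4/80, and Lcp1 and Laptm5 are genes of blood leukocytes. Csf1r stood at 6.97 to 9.84 TPM in the replicate 2 libraries of GHMT cells, at 2.27 to 6.22 TPM in replicate 1 and at 1.11 to 3.28 TPM in replicate 3. In uninfected cells the 5 closest of 10854 genes were Slc27a1 (0.974), Arfgap3 (0.949), Fbxo17 (0.942), Trim46 (0.939) and Efs (0.939), none of them in the list of macrophage markers. The uninfected libraries include those of day 21 with DMSO, where Apoe stood lowest and which lay behind its choice. Genes low in those libraries were thus favoured in this ranking, and the rankings of the arms were not tested against each other. Slc27a1, a transporter of long-chain fatty acids, stood at 6.76 ± 0.192 TPM with DMSO at day 21, against 14.4 ± 2.25 TPM untreated (SD, n = 3). Among the members, Apod stood at 0.160 in GHMT cells and at 0.753 in uninfected cells. Lrp11 stood at -0.129 in GHMT cells and at -0.782 in uninfected cells, where the libraries include those behind the choice of members, so the opposite sign was partly fixed by that choice.

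Macrophage markers were read as a list of 18 genes, since macrophages make Apoe. In bulk samples fewer cells of a type and less RNA per cell cannot be told apart. In GHMT cells the summed markers stood at 119 to 219 TPM in the 6 replicate 1 libraries, 321 to 456 TPM in replicate 2 and 45.6 to 74.0 TPM in replicate 3, with no overlap, and Apoe stood at 35.0 to 78.9, 116 to 227 and 23.0 to 111 TPM in the same libraries. None of the 18 was at 0 in all libraries of an arm. Of 17 tested in GHMT cells, 16 were lower with DMSO at day 21, with a median difference of -0.52 and none called. Their part in the Apoe levels was not tested.

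In uninfected cells the summed markers ran from 22.3 to 192 TPM, and Cx3cr1, Itgam and Fcgr1 stayed under 1 TPM in every library. At day 7 they summed to 40.5, 76.0 and 78.7 TPM with DMSO, against 137, 45.1 and 192 TPM untreated, groups that overlap. At day 21 they summed to 23.5, 28.1 and 59.5 TPM with DMSO, against 57.4, 102 and 123 TPM untreated, which overlap through DMSO replicate 3 and untreated replicate 1. All 14 tested markers were lower with DMSO at both days, with medians of -0.76 and -0.89 and none called. At day 2, 10 of the 14 were higher with DMSO (median 0.14). Ptprc and Aif1, which reached at most 1.20 and 1.55 TPM, lay near the filter on low values, which can favour a direction, as for Abcg1. Fibroblast markers were lower with DMSO too: all 10 in uninfected cells at day 7 (median -0.44, 1 fell) and at day 21 (median -0.61). They were already lower at day 2, 9 of 10 in uninfected cells (median -0.41) and all 10 in GHMT cells (median -0.32). Apoe differed there by -0.27 and -0.06, with overlapping groups. In GHMT cells at day 21 all 10 were lower with DMSO as well (median -0.45, 2 fell), where Apod had its lower mean. The part of these markers, and of macrophage markers, in the results was not tested. Adipocyte markers, of interest beside Lpl, summed to 40.2 to 70.6 TPM with DMSO and 122 to 129 TPM untreated in GHMT cells at day 21, where Lpl was higher with DMSO in every library. Of 9 adipocyte markers tested there, 3 were higher and 6 lower with DMSO, and 1 fell by the test. Their differences ran from -2.54 to 0.56 (median -0.50). Cardiomyocyte markers summed to 4772 to 7360 TPM with DMSO and 2524 to 2939 TPM untreated in the same libraries, without overlap, with 8 of 9 higher with DMSO, 3 of them called (median 1.33). At day 7 in GHMT cells they summed to 3313 to 5025 TPM with DMSO and 1129 to 2171 TPM untreated, with 9 of 9 higher and 3 called (median 1.36). The part of adipocyte and cardiomyocyte markers in the Lpl, Lrp1 and Lrp11 values of GHMT cells was not tested.

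**Figure D4:**
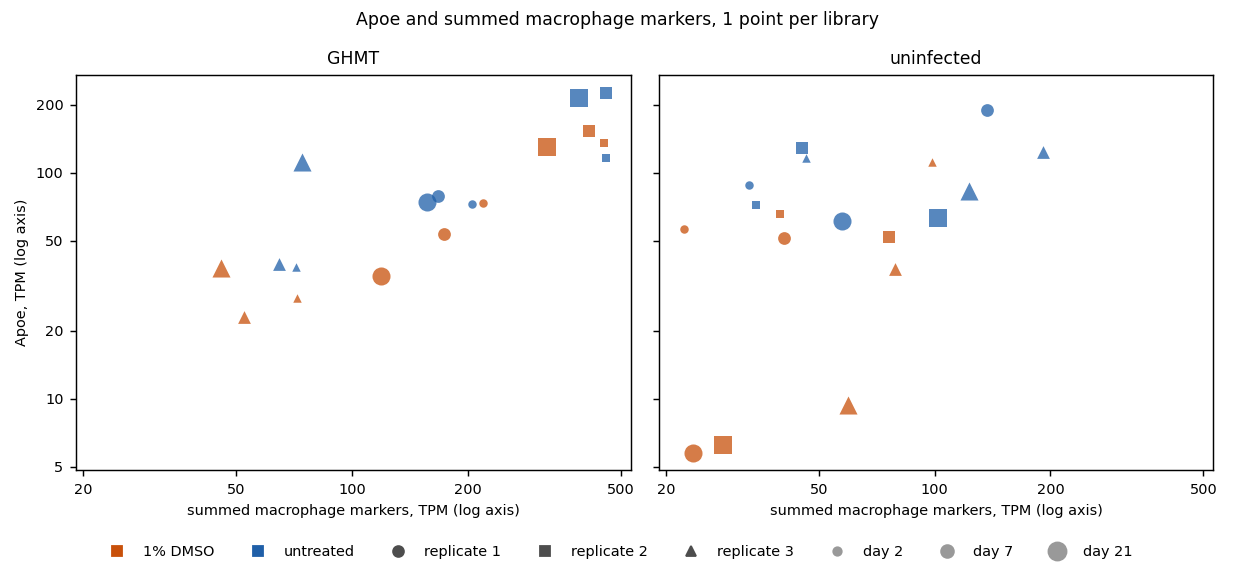
Apoe level against the summed level of 18 macrophage markers, both in TPM on log axes, with 1 point per library; colour gives the treatment, shape the replicate number and size the day. In GHMT cells the replicate 2 libraries lie at 321 TPM or more of markers and 116 TPM or more of Apoe, and in uninfected cells the 3 DMSO libraries of day 21 lie below 10 TPM of Apoe.

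Around the 10 members stand 111 other genes of lipid handling, in lists of receptors, apolipoproteins, liver X receptor targets, sterol trafficking, lipases and fatty acid uptake. In GHMT cells 89 of them were tested: none was called at day 2 (0.00485% of all genes), 1 rose and 3 fell at day 7, which is 4.49% beside 0.708% of all genes, and 3 rose and 9 fell at day 21, which is 13.5% beside 4.59%. In uninfected cells 87 were tested: 1 rose at day 2, which is 1.15% beside 0.285%, 1 rose and 2 fell at day 7, which is 3.45% beside 1.69%, and 2 rose and 5 fell at day 21, which is 8.05% beside 2.36%. Their median differences lay between -0.05 and 0.01 in these 6 comparisons, and those of all genes between -0.06 and 0.07. Over time 36 rose and 17 fell in GHMT cells with DMSO (59.6% beside 37.6% of all genes), and 30 rose and 4 fell in untreated GHMT cells (38.2% beside 24.6%). In uninfected cells 22 rose and 14 fell with DMSO (41.4% beside 15.1%), and 17 rose and 6 fell untreated (26.4% beside 11%). The lists were chosen with earlier results of these data known, so nothing further is read from these shares.

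In GHMT cells at day 7 Slc27a4, a fatty acid transport protein, rose by 0.77 ± 0.16 (adjusted p = 0.0473), at 22.3 ± 4.03 TPM with DMSO and 12.6 ± 1.58 TPM untreated (SD, n = 3). Its relative Slc27a3 fell by 0.92 (adjusted p = 0.0219), Apol6 by 1.38 (adjusted p = 0.0389) and Cav1, the coat protein of caveolae, by 0.75 (adjusted p = 0.0211). At day 21 the largest fall among the genes named was that of Cyp7b1, an oxysterol hydroxylase, at 0.839 ± 0.299 TPM with DMSO and 8.66 ± 0.864 TPM untreated (-2.40, adjusted p = 0.000748). Ch25h, which makes 25-hydroxycholesterol, fell by 2.09 (adjusted p = 0.0102), Olr1, a receptor of oxidised lipoprotein, by 1.73 (adjusted p = 0.0458), and Smpdl3a fell by 1.27 (adjusted p = 0.0171). Lrp10, a receptor of the same family as Lrp1, rose by 0.77 (adjusted p = 0.0301), and Rxrb, a partner of the liver X receptors, by 0.71 (adjusted p = 0.0406). Also called at day 21 were Slc27a3 (-1.27, adjusted p = 0.00105), Apol6 (-1.53, adjusted p = 0.00738) and Slc27a4 (0.86, adjusted p = 0.0103). Sdc1 (-0.72, adjusted p = 0.0301) and Plin3 (-0.41, adjusted p = 0.0459) were called there too.

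In uninfected cells at day 7 Scarb2, a lysosomal membrane relative of Scarb1, rose by 0.55 ± 0.08 (adjusted p = 0.00625), at 116 ± 4.78 TPM with DMSO and 79.2 ± 2.01 TPM untreated (SD, n = 3), while Scarb1 fell. Mgll, which splits monoglycerides, fell by 0.88 (adjusted p = 0.0145), and Slc27a1 by 0.55 (adjusted p = 0.0499). At day 21, given with no p, Scarb2 was 0.84 higher and Slc27a1, Mgll and Cyp7b1 were 0.98, 0.93 and 1.55 lower with DMSO. Lipa differed by 0.47, Cav1 by -0.89 and Plin3 by -0.53 at that day. Lrpap1, the chaperone of the receptor family, stood 0.57 higher with DMSO at day 2.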

How the data were processed

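RNA of 36 libraries was measured by RNA-seq. Per the labels' protocols, RNA was taken with trizol and Direct-zol kits and libraries were made with a TruSeq RNA kit. The authors deposited TPM values, 1 table per arm, made with kallisto (version given as 43) after Trimmomatic and FastQC, per the submitters' processing notes. No source used here names a genome build, an annotation or a strand setting. TPM keeps no depth, so no counting interval is given, and it sums over ribosomal and small nuclear RNA too: 7SK held 1.29 to 6.18% of TPM. Of 50698 entries, 97 name no gene (0.248 to 4.81% of TPM) and were left out.

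Genes reaching 1 TPM in 3 or more libraries of their table entered the fit as log2(TPM + 1), which shrinks differences of weakly expressed genes, with limma 3.58.1 in R 4.3.3 (mean-variance trend, 1 mean per group, 12 residual degrees of freedom over 18 libraries). Tests were two-sided and were adjusted within each comparison over all genes. The script was tested on simulated data. The comparisons were DMSO against untreated by arm and day, day 21 against day 2 by arm and treatment, and the difference of the DMSO effect between arms.

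The members, gene lists, marker lists and tests were chosen with earlier results of these data known. All members were named. From each list up to 2 called genes that rose and 2 that fell with the largest difference were taken per DMSO comparison, where a group mean reached 5 TPM. The 5 genes most like Apoe per arm had no predicted or clone-type symbol. Same-numbered libraries deviated together in GHMT cells at day 2 (r = 0.19 to 0.34) and day 7 (r = 0.18 to 0.25), all pairs over 0.1, so numbers were taken to pair libraries there. The pairing comes from the data, and no label states a shared batch. Alternatives were other pseudocounts, filters and scalings, the replicate number as a block over the arm or within a day, fits on 1 comparison's libraries, and leaving out libraries.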

Additional observations from a re-analysis of the deposited data

How the results depend on the processing

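Each of the members' differences was computed again under every alternative, 2207 values in all: 2032 kept their direction and side of the threshold, 34 lost a call, 34 gained one and 107 changed sign. None of the 107 was called with or without the change of setting (lowest adjusted p under the alternative 0.233, limma), and 90 of them came from leaving out 1 library. The 24 called differences kept their sign in all of these values. They include differences of Apoe and Lrp11 in uninfected cells at days 2 and 21 and over time. Those hold libraries behind the choice of members, so nothing is read from their sign. Unlike the DMSO counts of uninfected cells given earlier, the counts below include Abcg1, which the filter favoured in those cells. A call gained in uninfected cells may thus be that of Abcg1, so nothing is read from the gain at day 7. The number of members called moved as follows. Without the filter on low values it was 0 in GHMT cells at day 21, against 1 with it. Fitted on the libraries of 1 comparison alone it was 0 in GHMT cells at day 21, 0 in uninfected cells at day 2 (1 otherwise) and 1 in uninfected cells at day 21 (2 otherwise), with fewer residual degrees of freedom. With the replicate number as a block within a day it was 2 in GHMT cells at day 7 (0 otherwise), 5 in GHMT cells at day 21 (Apoe, Apod, Abcg1, Lpl and Lrp11; 1 otherwise), 5 in uninfected cells at day 7 (3 otherwise), 6 in uninfected cells at day 21 and 1 in the difference between arms at day 21 (Apoe; 0 otherwise). With the block over the whole arm it was 4 in untreated uninfected cells over time (2 otherwise) and 1 in the difference between arms at day 21. Nothing is read from the counts of uninfected cells at days 2 and 21 or over time, or from those between arms at day 21. These comparisons hold libraries behind the choice of Apoe and Lrp11, so the Apoe call between arms is no test.

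Leaving out each replicate in turn gave 0 to 2 members in GHMT cells at day 21, 0 to 2 in uninfected cells at day 7 and 1 to 3 in uninfected cells at day 21. The last range is of a comparison behind the choice of members, and nothing is read from it. Both ranges of uninfected cells include Abcg1. The cause of these moves was not tested beyond the smaller number of libraries. Outside GHMT cells at days 2 and 7, same-numbered libraries did not all correlate over 0.1, so there the numbers were not taken to pair libraries. Every DMSO library still correlated best with the untreated library of its own number. In GHMT cells summed macrophage markers also differed by replicate number without overlap over all days, so a shared property at day 21 is possible. Other scalings changed no number of members called by over 1.5 times, but they moved the split of all genes called. Rescaled to protein-coding genes, 798 genes rose and 600 fell in GHMT cells at day 21 (333 and 614 otherwise), 419 and 275 in uninfected cells at day 7 (129 and 208), 442 and 350 in uninfected cells at day 21 (145 and 327), and 1383 and 1629 over time in uninfected cells with DMSO (970 and 2041). With median-ratio scaling 58 rose and 89 fell in GHMT cells at day 7 (73 and 73), 15 and 56 in uninfected cells at day 2 (36 and 21), 115 and 325 in uninfected cells at day 7, 3083 and 2088 over time in untreated GHMT cells (3692 and 1381), and 1543 and 1463 over time in uninfected cells with DMSO. DMSO comparisons of the GHMT arm (days 7 and 21) and of the uninfected arm (days 2, 7 and 21) called, over all genes, 146, 947, 57, 337 and 472. With the block within a day the count was 1102, 2536, 635, 1666 and 1500, and without the 3 libraries that stood apart 30, 313, 119, 592 and 726. Fitted on 1 comparison alone it was 4, 6, 2, 481 and 46, and over time 4043 in GHMT cells with DMSO (7755 otherwise), 886 in uninfected cells with DMSO (3011) and 410 in untreated uninfected cells (2197). With the block over the whole arm it was 166, 716 and 769 in uninfected cells, and without the filter 52 in GHMT cells at day 7. In the difference between arms, 0 to 120 genes were called at day 7 (4 otherwise) and 0 to 437 at day 21 (52 otherwise). The block within a day was not run over time. TPM keeps no depth, so the precision of low genes such as Abcg1 is unknown, and 3 libraries a group limit all tests.

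Differences that changed sign are given in log2 units. Without the 3 libraries that stood apart they were -0.0041 for Abca1 in GHMT cells at day 7, -0.064 for Vldlr in GHMT cells at day 7, -0.23 for Vldlr in uninfected cells at day 21, 0.048 for Apoe in GHMT cells with DMSO over time, -0.058 for Abcg1 in untreated uninfected cells over time, 0.057 for Lrp1 in untreated uninfected cells over time, -0.27 for Vldlr in the difference between arms at day 7 and 0.20 for Apod in the difference between arms at day 21. With median-ratio scaling they were -0.045 for Abcg1 in GHMT cells at day 7, -0.0029 for Apod in uninfected cells at day 2, -0.014 for Vldlr in uninfected cells at day 21, 0.0085 for Lrp1 in untreated uninfected cells over time and -0.042 for Vldlr in the difference between arms at day 7. Rescaled to protein-coding genes they were 0.024 for Lrp1 in uninfected cells at day 21 and -0.030 for Vldlr in the difference between arms at day 7. With a pseudocount of 5 TPM they were -0.016 for Vldlr in the difference between arms at day 7 and -0.031 for Abcg1 in the difference between arms at day 21. Leaving out each replicate in turn gave -0.59 to 0.53 for Apoe, -0.083 to 0.54 for Abca1, -0.20 to 0.085 for Abcg1, -0.59 to 0.51 for Lpl, -0.39 to 0.40 for Lrp1 and -0.092 to 0.28 for Vldlr in GHMT cells at day 2. For GHMT cells at day 7 it gave -1.32 to 0.045 for Apoe, -0.079 to 0.68 for Abca1, -0.11 to 0.089 for Abcg1, -0.33 to 0.0026 for Scarb1 and -0.091 to 0.52 for Vldlr. For uninfected cells at day 2 it gave -0.35 to 0.77 for Apod, -0.29 to 0.47 for Abca1, -0.26 to 0.19 for Lpl, -0.44 to 0.0087 for Pltp and -0.42 to 0.15 for Lrp1. For uninfected cells at day 7 it gave -0.24 to 0.025 for Abca1 and -0.13 to 0.017 for Lpl. For uninfected cells at day 21 it gave -0.38 to 0.036 for Lpl, -0.32 to 0.10 for Lrp1 and -0.23 to 0.21 for Vldlr. In GHMT cells with DMSO over time it gave -0.83 to 0.29 for Apoe, -0.52 to 0.030 for Abca1 and -0.011 to 0.36 for Vldlr. In untreated GHMT cells over time it gave -0.22 to 0.030 for Vldlr. In uninfected cells with DMSO over time it gave -0.034 to 0.25 for Scarb1 and -0.24 to 0.32 for Lrp1. In untreated uninfected cells over time it gave -0.59 to 0.54 for Apod, -0.058 to 0.45 for Abcg1, -0.019 to 0.18 for Scarb1 and -0.16 to 0.16 for Lrp1. For the difference between arms at day 2 it gave -0.31 to 0.81 for Apoe, -1.03 to 0.094 for Apod, -0.26 to 0.51 for Abca1, -0.54 to 0.56 for Lpl, -0.19 to 0.26 for Pltp, -0.058 to 0.19 for Scarb1, -0.24 to 0.55 for Lrp1 and -0.34 to 0.030 for Vldlr. For the difference between arms at day 7 it gave -0.67 to 0.033 for Apod and -0.30 to 0.32 for Vldlr. For the difference between arms at day 21 it gave -0.51 to 0.066 for Apod and -0.33 to 0.054 for Scarb1.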
